A study of Mus musculus with 9 samples.

Results

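Red cell RNA in bulk muscle was followed through 5 genes, the alpha globins Hba-a1 and Hba-a2, the adult beta globins Hbb-bs and Hbb-bt, and Alas2. They were chosen by symbol, all 5 were found among the 55335 genes of the count table, and all 5 passed the filter on low counts. The libraries came from leg muscles of 9 WT mice (c57b6l in the labels' spelling), and every mouse, controls included, had undergone the procedure labelled hindlimb suspension ischemia. The mice formed 3 groups of 3, which were aspirin alone, aspirin with a peptide hydrogel, and no treatment (control). No group received hydrogel without aspirin, and there was no muscle from uninjured mice among the groups. The sex, age, dose, route, time after injury and whether the vessels were flushed before collection were not given in the sources used here.

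Haemoglobin is a tetramer of alpha and beta globin chains, each holding a haem, and its chains and haem are made in red cell precursors in bone marrow and spleen. Circulating reticulocytes, the last stage before the mature red cell, have lost the nucleus but still hold globin mRNA, and for this reason globin RNA is commonly met in RNA of tissues that contain blood. Alas2 encodes the erythroid form of 5-aminolevulinate synthase, the first enzyme of haem synthesis, whereas Alas1 encodes the form used in most other tissues. Muscle fibres carry oxygen on a different globin, myoglobin, from the gene Mb.

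The 5 genes lie at 3 places in the mouse genome (GENCODE vM21 annotation, GRCm38, the assembly also called mm10), and all are protein coding. Hba-a1 (ENSMUSG00000069919) spans chr11:32283511-32284465 and Hba-a2 (ENSMUSG00000069917) spans chr11:32296489-32297298, both on the plus strand and 12023 bases apart. Hbb-bt (ENSMUSG00000073940) spans chr7:103812524-103813996 and Hbb-bs (ENSMUSG00000052305) spans chr7:103826534-103828096, both on the minus strand and 12537 bases apart. Alas2 (ENSMUSG00000025270) spans chrX:150547375-150570638 on the plus strand. The copies within each pair are close to identical in their coding sequence: Hba-a1 and Hba-a2 differed at 1 of 426 bases (99.8% the same), and Hbb-bs and Hbb-bt differed at 1 of 441 bases. Of all 50-base windows of the Hba-a1 coding sequence, 87.8% also occurred in Hba-a2, and of those of Hbb-bs, 93.6% occurred in Hbb-bt. How the authors' counting treated reads that match both copies was not given in the sources used here, so the split of counts between the copies of a pair is uncertain, and sums of a pair are given beside it. The stretches that hold the single differing base, in capitals, are shown because they are the coding bases by which reads could be told apart (coding positions 351 to 410 for the alpha and 358 to 417 for the beta genes, from GENCODE transcripts):
Hba-a1: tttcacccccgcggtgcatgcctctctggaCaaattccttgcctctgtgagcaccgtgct
Hba-a2: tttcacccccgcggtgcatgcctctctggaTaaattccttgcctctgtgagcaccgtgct
Hbb-bs: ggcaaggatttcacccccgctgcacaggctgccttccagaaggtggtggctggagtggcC
Hbb-bt: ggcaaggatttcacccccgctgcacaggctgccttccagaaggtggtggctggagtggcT

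Because the 5 genes moved together, as described below, the stretches before their starts were also read. These are the 250 bases before the RefSeq start (GRCm38.p6), for which all 5 genes had an entry; the GENCODE models of all 5 begin inside these windows. Capitals mark matches, on either strand, to 4 motifs. The GATA motif was searched as AGATAA, its variant AGATAG, and the words with a changed first letter, TGATAA as well as TGATAG. The others were CACCC, a word bound by factors of the KLF family, the CCAAT box and the TATA box, searched as TATAA. Neighbouring matches may run together, as the CACCC matches of Alas2 and a CCAAT pair of Hbb-bt do. Hba-a2 is not printed because it shares an unbroken run of 247 bases with Hba-a1, whereas the longest run shared by Hbb-bs and Hbb-bt was 14 bases. The windows are chr11:32283422-32283671 (plus strand), chr7:103827929-103828178 (minus), chr7:103813924-103814173 (minus) and chrX:150547167-150547416 (plus), in the order printed:
Hba-a1: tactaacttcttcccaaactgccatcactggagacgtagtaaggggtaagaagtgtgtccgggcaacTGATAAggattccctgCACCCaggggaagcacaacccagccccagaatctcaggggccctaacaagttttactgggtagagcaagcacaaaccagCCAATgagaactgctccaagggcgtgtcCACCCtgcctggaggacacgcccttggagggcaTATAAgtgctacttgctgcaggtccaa
Hbb-bs: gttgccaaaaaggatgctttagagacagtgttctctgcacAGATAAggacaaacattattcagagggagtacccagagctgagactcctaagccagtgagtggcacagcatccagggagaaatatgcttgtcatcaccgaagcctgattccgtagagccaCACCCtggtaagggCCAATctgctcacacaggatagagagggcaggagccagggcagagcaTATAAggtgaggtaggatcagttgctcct
Hbb-bt: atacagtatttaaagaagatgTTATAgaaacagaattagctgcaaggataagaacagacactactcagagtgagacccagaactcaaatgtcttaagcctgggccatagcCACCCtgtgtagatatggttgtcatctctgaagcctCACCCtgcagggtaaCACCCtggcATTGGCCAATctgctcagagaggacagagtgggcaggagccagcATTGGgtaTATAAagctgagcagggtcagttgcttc
Alas2: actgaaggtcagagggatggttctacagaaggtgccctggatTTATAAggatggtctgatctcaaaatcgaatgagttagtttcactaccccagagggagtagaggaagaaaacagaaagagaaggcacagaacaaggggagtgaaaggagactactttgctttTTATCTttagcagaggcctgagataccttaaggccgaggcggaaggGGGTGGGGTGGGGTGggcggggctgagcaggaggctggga

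Hba-a1, Hba-a2 and Hbb-bs held all 4 motifs in this window, which 355 of 32851 mouse promoters of the same length did (1.08%). With their shared run of 247 bases, Hba-a1 and Hba-a2 are not separate cases, and the percentage is a description and not a test. In Hba-a1 the GATA match began at -183, the CACCC matches at -167 and -60, the CCAAT match at -88 and the TATAA match at -27 from the start. Hbb-bt held no GATA match and Alas2 no CCAAT match in these windows. Singly the motifs are common, since the GATA motif stood in 26.5% of all promoters, CACCC in 52% (17087 promoters), CCAAT in 33.8% and TATAA in 22.8%. A match describes the letters only, and no binding was measured in these libraries.

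The libraries held 32197791 to 48170537 counts, and a gene with no count lay below 0.0554 to 0.1001 CPM (counts scaled to the library's size after TMM normalization; 3 counts per library, which covers counting error only). All 9 carried the muscle fibre markers Acta1 and Ckm, at 5457 to 42453 CPM and 3107 to 38723 CPM. Aspirin replicate 1 stood apart from the other libraries, at -152 on the first principal component (51.9% of the variance) where the rest ran between -49.2 and 101, and its 10 muscle fibre markers summed to 18763 CPM, against 83372 to 250362 CPM in the other 8. Its TMM factor was 1.63, against 0.688 to 1.23 elsewhere. The sample codes carry number 7 for Aspirin replicates 1 and 2, 10 for Aspirin replicate 3, 8 for the hydrogel group and 9 for the controls. What these numbers stand for is not given, none is shared between groups, and a handling batch marked by them and treatment cannot be told apart. Aspirin replicate 3, the only library with number 10, was also the low aspirin library for the globins described below. The controls share number 9 and varied widely too, and a part of the numbers in the globin values was not tested.

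The beta globin Hbb-bs varied widely. It had 1393, 1778 and 144 CPM in aspirin, 172, 292 and 300.0 CPM in aspirin with hydrogel, and 998, 127 and 2490.0 CPM in control muscle. Aspirin replicates 1 and 2 and Control replicates 1 and 3 were high, the remaining Aspirin and Control libraries were no higher than the 3 hydrogel libraries, and all 3 groups overlapped. The second adult beta gene, Hbb-bt, had 588, 643 and 63.5 CPM in aspirin, 62.3, 114 and 114 CPM in aspirin with hydrogel, and 385, 42.3 and 903 CPM in control muscle. The same 4 libraries were high.

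For the alpha chain, Hba-a1 had 815, 1038 and 118 CPM in aspirin, 90.1, 185 and 183 CPM in aspirin with hydrogel, and 718, 95.3 and 1531 CPM in control muscle. Hba-a2 had 636, 790.0 and 93.3 CPM in aspirin, 68.4, 148 and 143 CPM in aspirin with hydrogel, and 554, 75.5 and 1158 CPM in control muscle. Here again a single Aspirin and a single Control library lay among the hydrogel libraries, and Hydrogel replicate 1 was the lowest of all 9 libraries for both alpha genes.

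Alas2, whose product commits glycine and succinyl-CoA to haem, had the same pattern over the libraries. It had 57.6, 69.7 and 8.03 CPM in aspirin, 5.73, 15.7 and 14.4 CPM in aspirin with hydrogel, and 53.0, 4.91 and 106 CPM in control muscle. These levels rested on 220 to 3658 counts per library. In GENCODE, 311 exonic bases of Alas2 are shared with Apex2, a DNA repair gene on the opposite strand, and since a strand setting was not given, reads from those bases cannot be assigned to either gene.

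For all 5 genes the 4 highest libraries came in the same order, Control replicate 3, Aspirin replicate 2, Aspirin replicate 1 and Control replicate 1. A step of 3.33- to 3.88-fold in CPM separated the fourth from the fifth library, and the highest library was 16.9- to 21.7-fold above the lowest. No other step is described because libraries were not grouped by their globin level in any test.

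**Figure D1:**
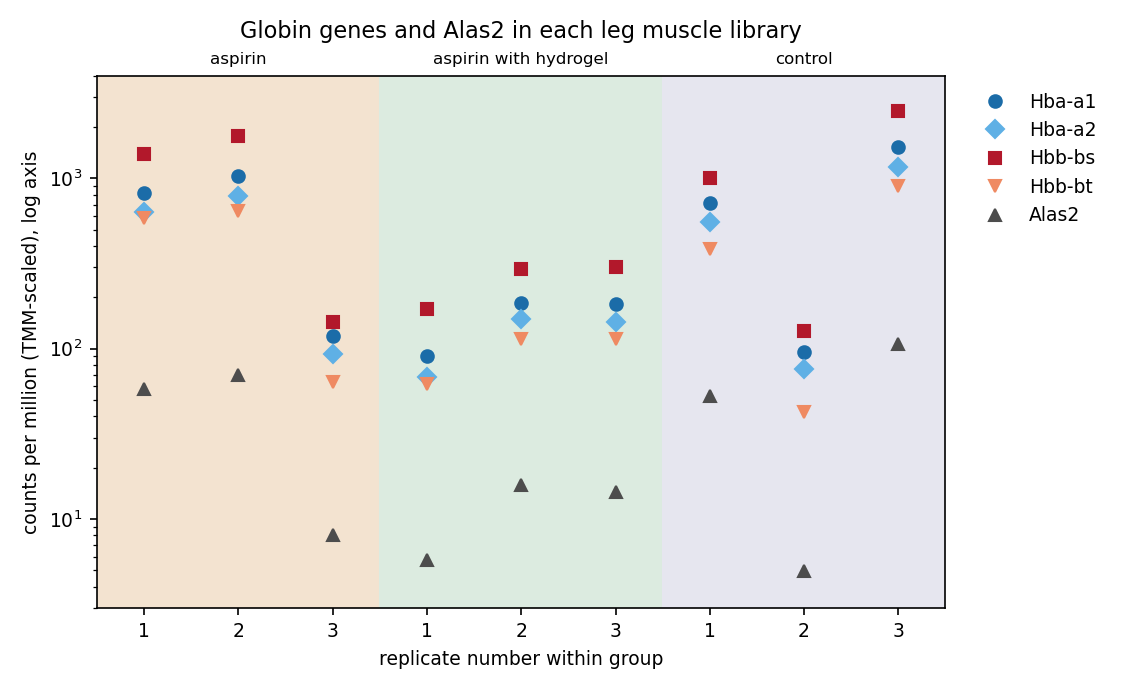
CPM of the 5 genes (y axis, log scale) in each of the 9 libraries (x axis, replicate numbers within the aspirin, aspirin with hydrogel and control groups; 1 point per gene and library). The 3 hydrogel libraries sit close together and low (172 to 300.0 CPM for Hbb-bs), whereas aspirin (144 to 1778 CPM) and control (127 to 2490.0 CPM) each hold 2 high libraries and 1 low one.

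Per length of transcript, in the authors' FPKM, the 5 genes had the same order in all 9 libraries: Hbb-bs, Hba-a1, Hba-a2, Hbb-bt and Alas2. Hbb-bs averaged 1688 ± 1344 FPKM in aspirin, 259 ± 72.1 FPKM in aspirin with hydrogel and 1411 ± 1252 FPKM in control muscle (SD, n = 3 each). Alas2 averaged 22.0 ± 17.05 FPKM in aspirin, 3.86 ± 1.87 FPKM in aspirin with hydrogel and 20.8 ± 17.5 FPKM in control muscle (SD, n = 3 each). Among the globins, neighbours in this order lay within a standard deviation of each other in the aspirin and control groups, but the order itself did not change between libraries.

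The spread within groups was large for these genes. Within-group SDs of log2 CPM were 1.57 to 1.74, against a median of 0.44 over 14572 genes averaging at least 1 CPM, and 3.36% to 4.12% of those genes had an SD as large. The spread was not shared out evenly: the highest library was 1.75- to 2.75-fold above the lowest in aspirin with hydrogel, against 8.47- to 12.3-fold in aspirin and 15.3- to 21.7-fold in control muscle. With 3 libraries a group, these ranges describe the libraries, and the difference in spread was not tested.

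In aspirin against control, none of the 5 genes passed the test. Log2 fold changes were -0.25 for Hba-a1, -0.23 for Hba-a2, -0.13 for Hbb-bs, -0.04 for Hbb-bt and -0.28 for Alas2, with standard errors of 0.94 to 1.03 and Benjamini-Hochberg adjusted p of 0.961 to 0.994 (edgeR's quasi-likelihood test). The interval for Hbb-bs ran from -2.45 to 2.20 (95%), so fold changes of more than 4 either way lay inside it. Called were 0 of 5 members, against 0% of all 18259 genes tested, and 1183 genes had an unadjusted p under 0.05 (3.39% of all genes in the lower direction), none of them a member. DESeq2 called 82 genes (0.407%) and 0 members. The sign of these values turned with the library left out. Without Aspirin replicate 3 they were 0.22 to 0.48, without Control replicate 3 they were 0.64 to 1.01, and without Aspirin replicate 1 they were -0.50 to -0.33.

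In aspirin with hydrogel against control, all 5 fold changes pointed down by more than 4-fold, and none passed the adjusted threshold. The mean level of Hba-a1 was 153 ± 54.2 CPM in aspirin with hydrogel and 782 ± 720.1 CPM in control muscle (SD, n = 3 each). Its log2 fold change was -2.36 ± 1.00 (SE), with an interval of -4.63 to -0.08, an unadjusted p of 0.0436 and an adjusted p of 0.987 by edgeR. The others were -2.31 for Hba-a2, -2.24 for Hbb-bs, -2.20 for Hbb-bt and -2.20 for Alas2, with unadjusted p of 0.0443 to 0.0670 and the same adjusted p. Called were 0 of 5 members, against 0% of genes, and 2 members (Hba-a1 and Hba-a2) had an unadjusted p under 0.05 in the lower direction, against 2.18% of genes. DESeq2 called 14 genes (0.076%) and 0 members, with unadjusted p of 0.00529 to 0.0137 and adjusted p of 0.576 to 0.754 for the members.

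These values depended on single control libraries. Without Control replicate 3 the log2 fold changes were -1.43 to -1.16 (unadjusted p 0.192 to 0.307 by edgeR), and without Control replicate 2, the low control, they were -2.89 to -2.75 (unadjusted p 0.00956 to 0.0176, adjusted p 0.982). With the copies of each pair summed, the alpha globins had -2.34 ± 1.01 and the beta globins -2.23 ± 1.08 (log2 fold change ± SE, adjusted p 0.987 for both by edgeR). Bulk RNA does not tell fewer red cells in the tissue from less globin RNA per red cell.

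In aspirin with hydrogel against aspirin alone, which shares the hydrogel libraries with the comparison above, the fold changes were again below 0 and again missed the threshold. They were -2.10 for Hba-a1, -2.08 for Hba-a2, -2.12 for Hbb-bs, -2.16 for Hbb-bt and -1.92 for Alas2 on the log2 scale, with standard errors of 0.98 to 1.07 and adjusted p of 0.459 to 0.483 by edgeR. Called were 0 of 5 members, against 0% of genes, and no member had an unadjusted p under 0.05 by edgeR over all 9 libraries, against 7.61% of genes in the lower direction. DESeq2 called 148 genes (0.779%) and 0 members, with unadjusted p of 0.0123 to 0.0306 and adjusted p of 0.221 to 0.304 for the members. Without Aspirin replicate 3, the low aspirin library, the values were -2.69 to -2.43, with unadjusted p of 0.0203 to 0.0354 and adjusted p of 0.176 to 0.203 by edgeR and 2 genes called in all (0.0104%), neither of them a member. Leaving out Aspirin replicate 1, the library with little muscle fibre RNA, gave -1.92 to -1.70, leaving out Aspirin replicate 2 gave -1.74 to -1.45, and leaving out Hydrogel replicate 1 gave -1.91 to -1.58. With library size alone in place of TMM the values were -2.79 to -2.54, with an adjusted p of 0.335 by edgeR. In the test of any difference between the 3 groups the members had adjusted p of 0.661 to 0.667 by edgeR, and 0 of 5 were called, against 0% of genes; DESeq2 called 129 genes (0.701%) and 0 members.

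The groups overlapped for each of the 5 genes in each of the 3 comparisons. Among all 18259 genes, 5.44% were lower without overlap and 5.54% higher in aspirin against control, 6.3% (1151 genes) and 6.85% in aspirin with hydrogel against control, and 8.75% and 7.46% in aspirin with hydrogel against aspirin.

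**Figure D2:**
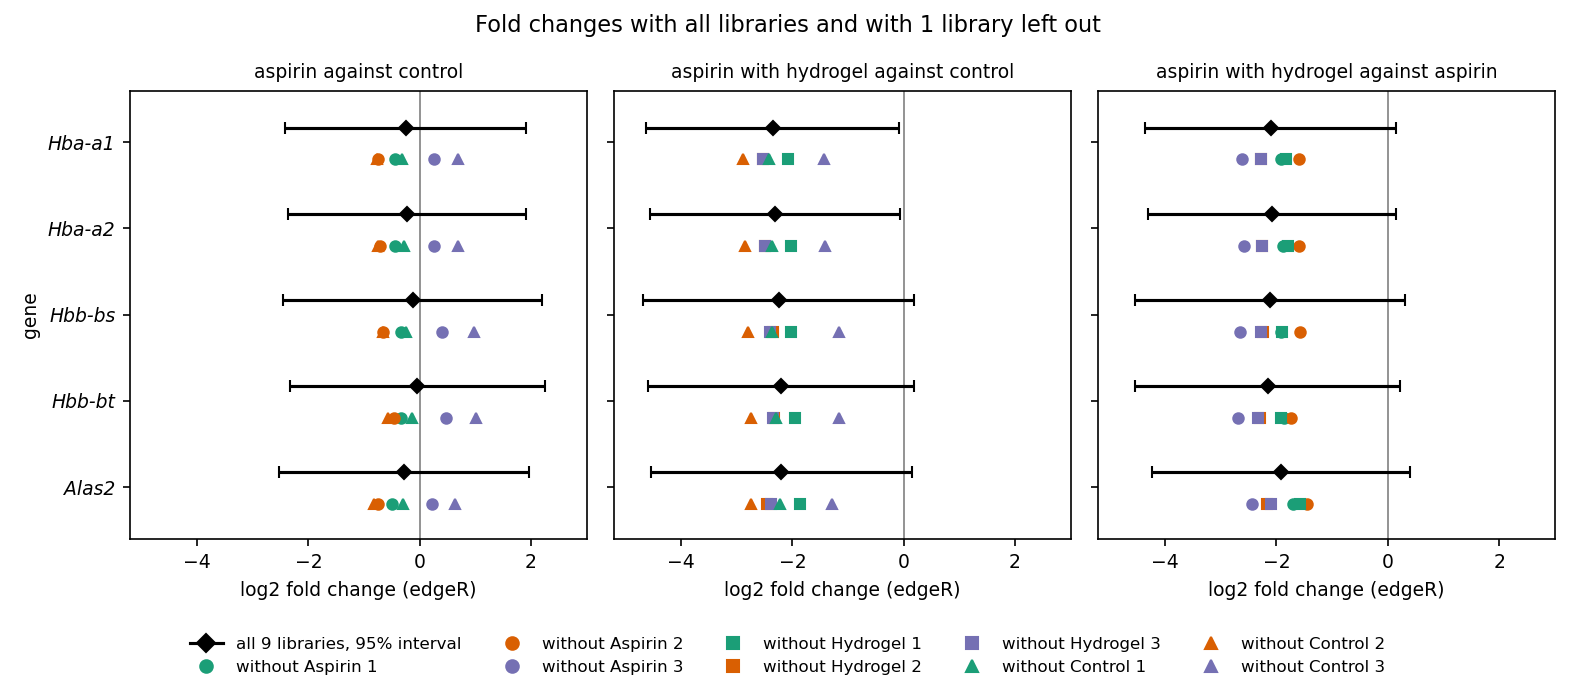
Log2 fold changes (x axis) of the 5 genes (y axis) in the 3 comparisons; black diamonds with bars are the edgeR values over all 9 libraries with 95% intervals, and coloured marks are the values with 1 library left out. In the panel of aspirin against control the marks fall on both sides of 0, and in both hydrogel panels they stay below 0, between -2.89 and -1.16.

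The amount of globin RNA varied far more than its make-up. The 4 globin genes took 0.559%, 0.463% and 0.0366% of all counts in aspirin, 0.0373%, 0.0713% and 0.0509% in aspirin with hydrogel, and 0.326%, 0.0316% and 0.541% in control muscle, a 17.7-fold range. As a share of counts Aspirin replicate 1 was the highest library, whereas on the TMM scale it ranked behind Control replicate 3 and Aspirin replicate 2. Alpha over beta globin counts ran only from 0.678 in Hydrogel replicate 1 to 1.02 in Aspirin replicate 3, a 1.504-fold range. By group this ratio was 0.836 ± 0.160 in aspirin, 0.762 ± 0.0752 in aspirin with hydrogel and 0.907 ± 0.108 in control muscle (SD, n = 3 each), with overlapping groups.

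Within the pairs, Hba-a2 took 43.1% to 44.4% of alpha counts and Hbb-bt 24.9% to 30.6% of beta counts across the 9 libraries. The share of Hbb-bt was highest in Aspirin replicate 3 (30.6%, 95% exact binomial interval 29.6% to 31.7%) and lowest in Control replicate 2 (24.9%, 24.0% to 25.9%). These were both libraries of low globin, 14666 and 15236 globin counts, and their intervals cover counting error only. Alas2 had 14.4 to 21.3 counts per 1000 globin counts, a 1.47-fold range, at 17.4 ± 1.495 in aspirin, 18.4 ± 3.45 in aspirin with hydrogel and 17.3 ± 2.76 in control muscle (SD, n = 3 each). Pearson correlations of log2 CPM between members over the 9 libraries were 0.989 to 1.000. The values within each pair carry the uncertain split of reads between copies. Alas2 correlated with the 4 globin genes at 0.989 to 0.994, and no 50-base window of the Hba-a1 or Hbb-bs coding sequence occurred in its own.

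**Figure D3:**
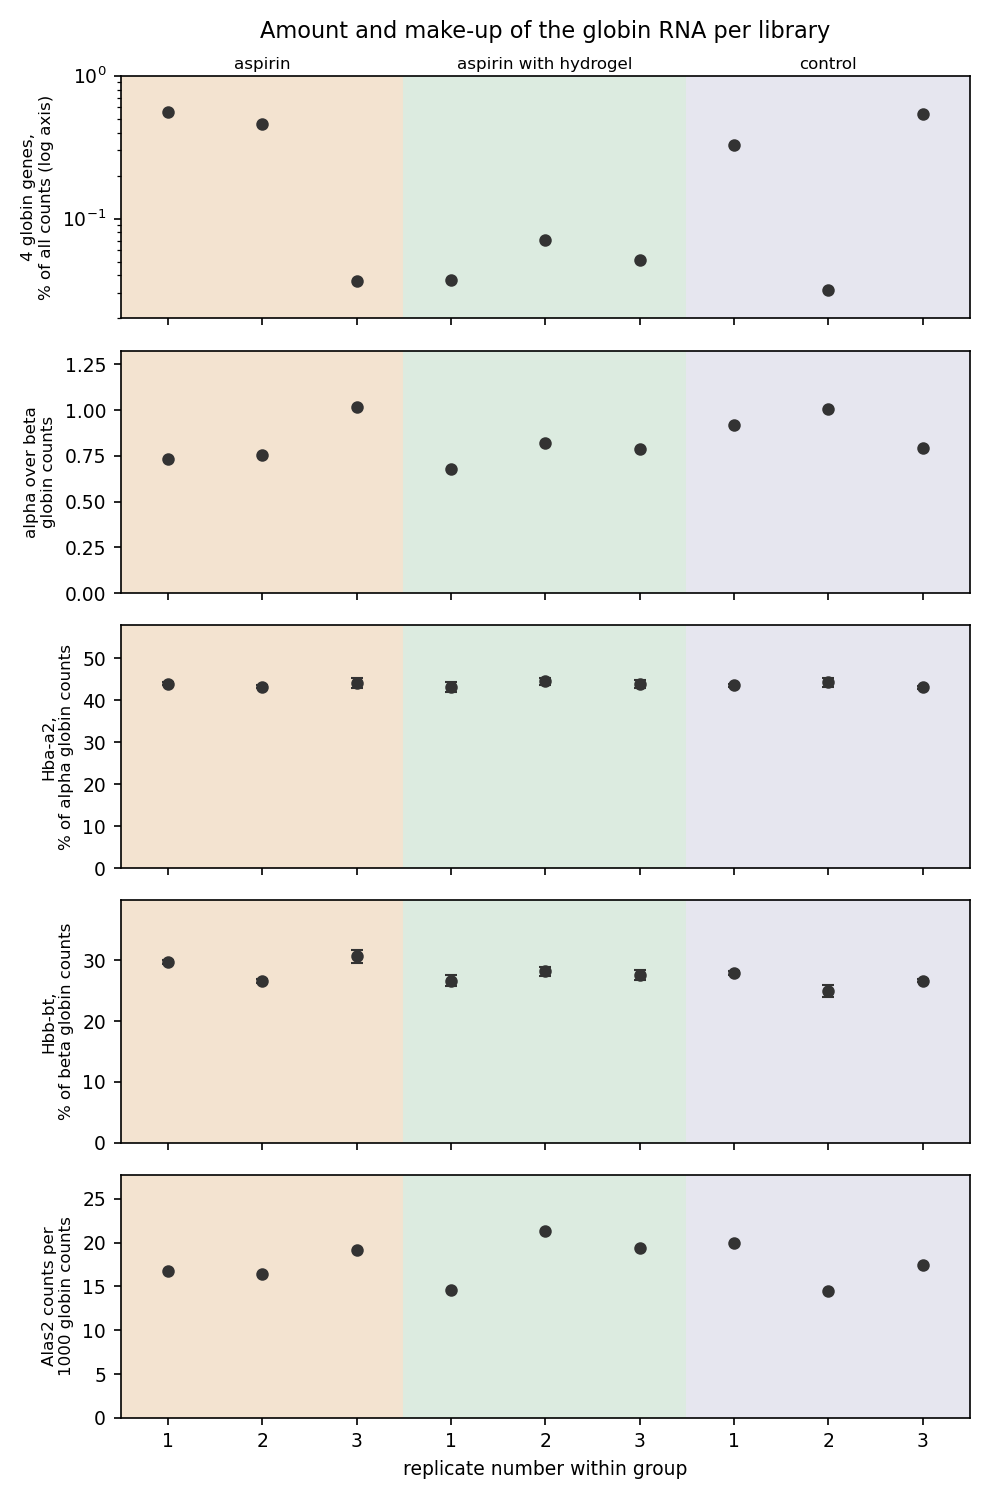
From top to bottom, the share of all counts in the 4 globin genes (percent, log axis), alpha over beta globin counts, Hba-a2 as percent of alpha counts, Hbb-bt as percent of beta counts and Alas2 counts per 1000 globin counts, for each of the 9 libraries (x axis, replicate numbers within group). Bars, where drawn, are 95% exact binomial intervals. The top panel spans 17.7-fold while the Hba-a2 share stays between 43.1% and 44.4%.

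The other genes of red cells were taken from lists by function. Of the erythroid membrane and cytoskeleton list, 13 of 16 genes were tested and 0 were called in any of the 3 comparisons (median log2 fold change -0.35, -0.16 and -0.18 in aspirin against control, hydrogel against control and hydrogel against aspirin, where all genes had 0.05, -0.03 and -0.05). Slc4a1, the band 3 anion exchanger of the red cell membrane, had 2.54, 2.41 and 1.29 CPM in aspirin, 0.339, 0.604 and 0.567 CPM in aspirin with hydrogel, and 5.75, 0.0893 and 5.64 CPM in control muscle. Its 4 highest libraries were the same 4 as those of the globins, and its log2 fold change in aspirin with hydrogel against control was -2.92 ± 1.09 (SE; unadjusted p 0.0253, adjusted p 0.987 by edgeR). The Slc4a1 value rested on 14, 20 and 17 counts in aspirin with hydrogel and 4 counts in Control replicate 2. Add2, beta adducin of the membrane skeleton, was at no more than 0.844 CPM in any library. It did not share the 4 libraries: Aspirin replicate 3, a low globin library, had 0.457 CPM, above Aspirin replicates 1 and 2 (0.191 and 0.187 CPM).

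Sptb, Ank1 and Epb41 (beta spectrin, ankyrin 1 and protein 4.1), which skeletal muscle also expresses, did not follow the globins. They were named after their values were seen. Ank1 had 32.4, 227 and 807 CPM in aspirin, 441, 585 and 731 CPM in aspirin with hydrogel, and 306, 554 and 418 CPM in control muscle. It was lowest in Aspirin replicate 1 and highest in Aspirin replicate 3, a low globin library.

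Of the haem synthesis list, 13 of 14 genes were tested, 0 were called, and the medians were -0.17, 0.05 and 0.17 in the same 3 comparisons. Fech, ferrochelatase, which puts iron into haem in all tissues, had 35.8, 72.1 and 103 CPM in aspirin, 104, 129 and 173 CPM in aspirin with hydrogel, and 90.3, 119 and 124 CPM in control muscle. It was lowest in Aspirin replicate 1, and its correlation with the mean of the members was -0.46 over the 9 libraries. Cpox and Abcb10, a porphyrin pathway enzyme and a mitochondrial transporter, had correlations of -0.39 and -0.45. Alas1 ran from 25.3 CPM in Aspirin replicate 1 to 115 CPM in Control replicate 3. Alas1 was named after its values were seen.

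Of 12 erythroid transcription factors, 9 were tested and 0 called (medians 0.09, -0.29 and -0.38). The 3 that failed the filter include Gata1 and Klf1, master regulators of red cell development, with 2 to 30 and 0 to 7 counts per library. Gata1 was at 0.324, 0.117 and 0.0857 CPM in aspirin, 0.145, 0.151 and 0.167 CPM in aspirin with hydrogel, and 0.554, 0.0670 and 0.0582 CPM in control muscle, and in Control replicate 3, the highest globin library, it had 2 counts. Zfpm1, the partner of GATA factors, had 2.60 to 9.34 CPM and a correlation of -0.62 with the members. Nfe2 had 0 to 1.54 CPM and Ldb1 28.9 to 113 CPM.

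Of the late erythroid and red cell list, 19 of 20 genes had a row, 15 were tested and 0 were called (medians -0.26, -0.34 and -0.57). Trim10, a gene of terminal erythroid differentiation, had 0.267, 0.984 and 0.514 CPM in aspirin, 0.0484, 0.212 and 0.167 CPM in aspirin with hydrogel, and 1.40, 0.0447 and 2.21 CPM in control muscle. Its log2 fold change in aspirin with hydrogel against control was -3.09 ± 1.18 (SE, unadjusted p 0.0277, adjusted p 0.987 by edgeR). This rested on 2, 7 and 5 counts in aspirin with hydrogel and 2 counts in Control replicate 2. Mkrn1 and Isg20 had correlations with the members of 0.79 and 0.85. Of the other globins, 11 of 13 had a row and 2 were tested. Myoglobin (Mb) had 423, 1002 and 599 CPM in aspirin, 1233, 599 and 324 CPM in aspirin with hydrogel, and 1203, 588 and 1444 CPM in control muscle, and its correlation with the members was 0.35. Cytoglobin (Cygb), a globin of fibroblasts and related cells, had a correlation of 0.86 over a narrow range of 29.3 to 60.2 CPM.

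Over the whole table, the genes most like the members were ranked by the Pearson correlation of log2 CPM with the members' mean over the 9 libraries. Of 14567 other genes averaging at least 1 CPM, 7 reached 0.9 (0.0481%) and 127 reached 0.8 (0.872%). In the opposite direction, 12 were at or below -0.9 and 97 at or below -0.8. Among the 8 highest with established names were Cd9 (0.94), Tmem59 (0.93), Mfap5 (0.92), Mthfs (0.92), Ctsk (0.91), Itgbl1 (0.90) and Plxdc2 (0.90). Ctsk, the collagen-degrading protease cathepsin K known from osteoclasts, spanned a wide range, from 24.6 CPM in Hydrogel replicate 3 to 320.4 CPM in Control replicate 3. Tmem59 and Mthfs followed the same libraries over far smaller ranges, 61.8 to 103 CPM and 2.97 to 5.496 CPM. None of the 8 was called in any comparison, and with 9 libraries of 1 experiment the ranking describes these libraries.

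**Figure D4:**
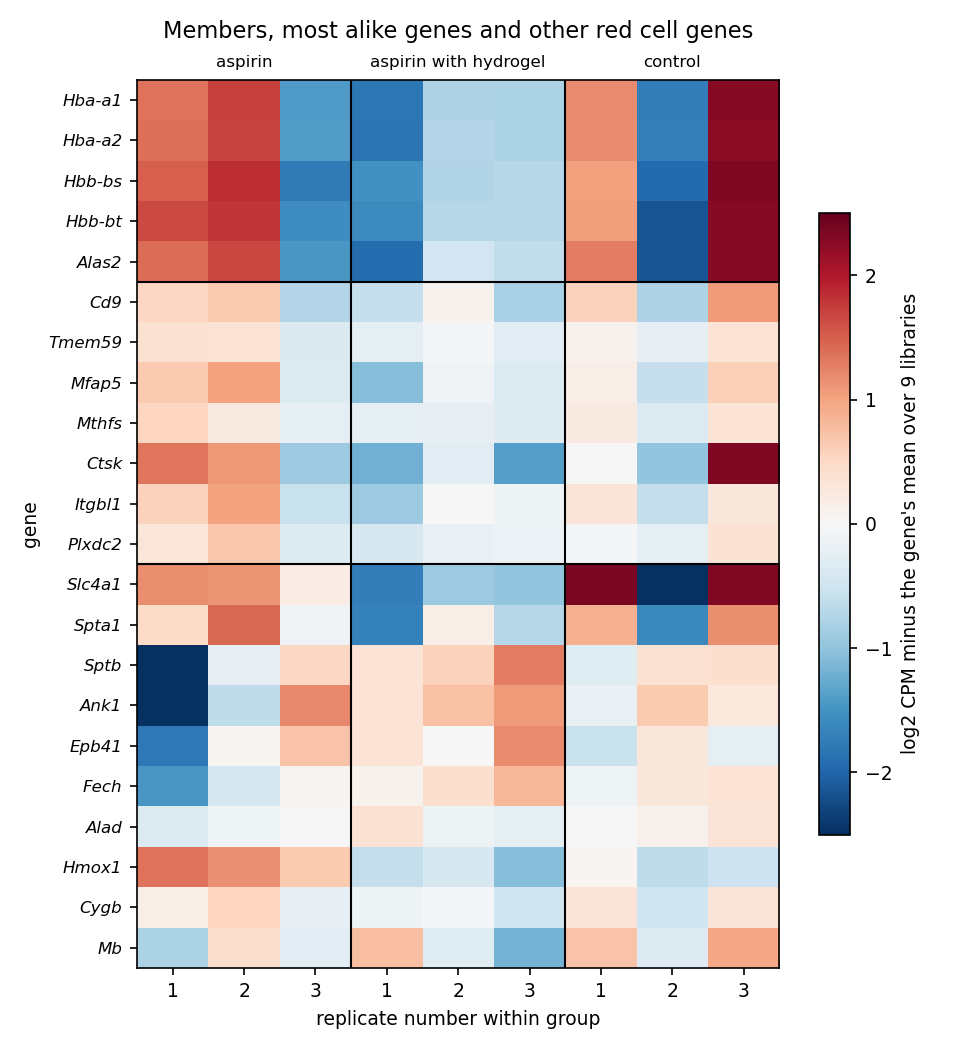
Log2 CPM minus each gene's mean over the 9 libraries (colour, limited to 2.5 either way) for 22 genes (rows) and the 9 libraries (columns, replicate numbers within group). The top block holds the 5 members, the middle block 7 of the 8 most alike genes and the bottom block 10 other genes of red cells, haem or oxygen binding, with values below 0.1 CPM drawn at 0.1. The members are red in Aspirin replicates 1 and 2 and Control replicates 1 and 3, Slc4a1 repeats this, and Ank1 does not.

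Markers of other blood cells were set beside the members, since these cells reach a tissue by the same route. Of 11 neutrophil markers tested, all 11 were lower in aspirin with hydrogel than in control muscle (median log2 fold change -2.05) and 0 were called. In aspirin against control 10 of the 11 were higher (median 1.65, 0 called). In aspirin with hydrogel against aspirin all 11 were lower (median -3.28, 0 called). Of these 11, 7 had an unadjusted p under 0.05 by edgeR, against 7.61% of all genes in the lower direction. The sum of all 12 listed neutrophil markers ran from 34.9 to 496 CPM in aspirin, 11.7 to 42.7 CPM in aspirin with hydrogel and 27.5 to 181.5 CPM in control muscle. Library by library they followed the globins only in part. Aspirin replicate 1 and Control replicates 1 and 3, high globin libraries, had 496, 131 and 181.5 CPM. Of the sum in Control replicate 3, 104.7 CPM came from Mmp9 alone. Aspirin replicate 2, also a high globin library, had 34.9 CPM, and Aspirin replicate 3, a low one, had 216 CPM. The correlations of Mmp9, S100a8 and Csf3r with the members were 0.66, 0.51 and 0.29. Mmp9 and S100a8 were the highest of the list, and the other tested neutrophil markers ran from 0.005 (Cxcr2) to 0.44 (Mmp8). Of 16 platelet and megakaryocyte markers, 14 were lower in aspirin with hydrogel than in control muscle (median -0.89, 0 called), and 14 were lower than in aspirin alone (median -1.11, 0 called). The sums of all 18 listed were 48.7 to 94.9 CPM in aspirin, 23.4 to 38.4 CPM in aspirin with hydrogel and 30.4 to 57.4 CPM in control muscle. Tubb1, the platelet beta tubulin, had 0.744, 0.750 and 0.171 CPM in aspirin, 0.0726, 0.151 and 0.200 CPM in aspirin with hydrogel, and 0.702, 0.246 and 0.960 CPM in control muscle. Its 4 highest libraries were those of the globins. Pf4 and Alox12, named by rule from the same list, did not share these 4 libraries. Pf4 was highest in the 3 Aspirin libraries (53.7, 30.1 and 17.6 CPM) and had a correlation of 0.54 with the members. Alox12 was highest in Control replicate 1 and Hydrogel replicate 1 (5.47 and 4.74 CPM), with a correlation of -0.15. The log2 fold change of Tubb1 was -2.16 ± 0.80 in aspirin with hydrogel against control (SE, unadjusted p 0.0241, adjusted p 0.987 by edgeR), on only 3, 5 and 6 counts in aspirin with hydrogel. The lymphocyte sum was 6.83 to 1004 CPM in aspirin, 9.01 to 120 CPM in aspirin with hydrogel and 16.1 to 363 CPM in control muscle, with Ms4a1 at 0 in Aspirin replicate 2 and Control replicate 3, both high globin libraries. The 8 marrow precursor markers tested were also all lower in aspirin with hydrogel than in control muscle (median -1.13, 0 called). The sums of all 9 listed were 120 to 476 CPM in aspirin, 97.3 to 152 CPM in aspirin with hydrogel and 143 to 208 CPM in control muscle. These sums rested mainly on Cd34, Mki67 and Top2a. Cd34 had 90.5 CPM in Hydrogel replicate 3, and Mki67 and Top2a had 254 and 114 CPM in Aspirin replicate 1. Mpo, Elane, Prtn3 and Ctsg were at no more than 4.33 CPM in any library. No gene of these 4 lists was at 0 in every library, and the part of these cells in the globin values was not tested.

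The 8 endothelial markers were all lower in aspirin than in control muscle (median -1.03, 0 called). All 8 had an unadjusted p under 0.05 by edgeR, against 3.39% of all genes in the lower direction. Their sums were 210.0 to 285 CPM in aspirin, 277 to 453 CPM in aspirin with hydrogel and 362 to 641 CPM in control muscle. The globins did not follow them: Control replicate 2, with the lowest Hbb-bs, had the highest endothelial sum. Cdh5, VE-cadherin, had a correlation of -0.52 with the members.

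Among genes that clear haemoglobin and break down haem, 13 of 13 were tested and 0 called (medians 0.45, -0.06 and -0.57). Hmox1, haem oxygenase 1, which opens the haem ring, had 107, 92.6 and 66.4 CPM in aspirin, 27.9, 31.8 and 20.1 CPM in aspirin with hydrogel, and 43.6, 26.9 and 29.1 CPM in control muscle. In contrast to the globins, all 3 Aspirin libraries lay above all others, with a log2 fold change of 1.42 ± 0.29 against control (SE; unadjusted p 0.000842, adjusted p 0.747 by edgeR). Control replicate 3, which had the most globin RNA, had 29.1 CPM of Hmox1, and the correlation of Hmox1 with the members was 0.45.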

How the data were processed

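RNA of 9 leg muscle samples was extracted with a Qiagen RNeasy Plus mini kit and made into libraries with a SMARTER mRNA-Seq kit, per the labels' protocols. The deposited tables hold raw counts per gene and FPKM made by the authors, with mm10 named in the submitters' processing notes. No aligner, counter, annotation or strand setting is given in the sources used here.

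Counts were tested with edgeR's quasi-likelihood method (4.0.16, robust, R 4.3.3) fitted over all 9 libraries with group as the only term. It used TMM scaling, filterByExpr (minimum count 10, total 15) and Benjamini-Hochberg adjustment over 18259 genes at 0.05. Levels are CPM on TMM-scaled library sizes. For correlations, CPM were taken to log2 after adding a prior count of 1. Alternatives were DESeq2 1.42.0, limma 3.58.1 on log2(FPKM + 0.1) and log2(FPKM + 1), other scalings and filters, summed copies and leaving out libraries. The mice of a group are described as separate animals, and all pairs of libraries differed by more than sampling noise (smallest chi-square per degree of freedom 70.5).

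Named genes are the 5 members, the 3 genes of each list with the smallest p for any difference (the first 2 for muscle fibre and endothelium), of which the text prints part, and the 8 most alike genes, leaving out predicted and pseudogene names. Sptb, Ank1, Epb41, Alas1, Gata1, Klf1 and the extra genes of the heat map were chosen after their values were seen. Members and lists were chosen with earlier results of these data known. Hbb-b1, Hbb-b2 and Ahsp matched no row, and Tent5c was matched by its gene ID. A few genes that these rules name are not reported here.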

Additional observations from a re-analysis of the deposited data

How the results depend on the processing

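No member passed the adjusted threshold in any of the 3 comparisons or in the test of any difference, under any of the alternatives run (0 in 66 recomputed counts). Both hydrogel comparisons kept their negative sign throughout, although library size alone moved aspirin with hydrogel against aspirin to -2.79 for Hbb-bt, against -2.16 with TMM, and 201 of 228 recomputed member fold changes kept their sign. The 27 that turned positive were all in aspirin against control, given here in the order Hba-a1, Hba-a2, Hbb-bs, Hbb-bt and Alas2. With library size alone they were 0.13, 0.15, 0.28, 0.38 and 0.11. Under that scaling the all-gene median shifted by 0.23, -0.23 and -0.46 in aspirin against control, hydrogel against control and hydrogel against aspirin. With limma on log2(FPKM + 0.1) they were 0.17, 0.17, 0.25, 0.42 and 0.25, and with 1 added in place of 0.1 they were 0.17, 0.17, 0.25, 0.42 and 0.19. Without Aspirin replicate 3 they were 0.25, 0.26, 0.40, 0.48 and 0.22, and without Control replicate 3 they were 0.69, 0.68, 0.97, 1.01 and 0.64. Leaving out each library in turn gave ranges of -0.77 to 0.69, -0.75 to 0.68, -0.66 to 0.97, -0.57 to 1.01 and -0.82 to 0.64. The cause of the turns was not tested.

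The labels do not say whether equal replicate numbers pair the libraries, and pairing was not tested. Of 9 same-numbered pairs, 7 had correlated deviations above 0.1, the range was -0.44 to 0.62, and 5 of 9 libraries correlated best with their own number. With the replicate block, Hbb-bs and Hbb-bt had 0.10 and 0.20 in aspirin against control, 0 members were called, and 1 gene was called in aspirin with hydrogel against aspirin, against 0 without the block.

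Counts over all genes moved with the tool. DESeq2 called 82 genes in aspirin against control, 14 in aspirin with hydrogel against control, 148 in aspirin with hydrogel against aspirin and 129 in the test of any difference, where edgeR called 0 in each. Leaving out 1 library gave 0 to 2 calls by edgeR in aspirin with hydrogel against aspirin (2 without Aspirin replicate 3), 0 to 1 in the test of any difference (1 without Aspirin replicate 2) and 0 in both comparisons with control. On the deposited FPKM, which weight genes by length, the 4 globins took 1.02%, 0.156% and 0.898% of the total in aspirin, aspirin with hydrogel and control. In the same order, Hba-a2 took 48.6%, 48.7% and 48.5% of alpha FPKM and Hbb-bt took 30.8%, 29.2% and 28.2% of beta FPKM. Alas2 had 5.39, 5.69 and 5.36 per 1000 globin FPKM. The members had at least 220 counts in each library.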

Other observations

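Among the other globin genes, the embryonic Hbb-bh1 had 48 counts in Aspirin replicate 1 (0.916 CPM), the library that stood apart, and 0 to 3 counts in the other 8. Hba-x, Hbb-y, Hbb-bh0 and Hbb-bh3 had no count in any library, which allows up to 0.0554 to 0.1001 CPM per library (3 counts, counting error only).

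Bcl11a, a repressor of embryonic globins that B lymphocytes also express, had 20.6, 0.164 and 0.372 CPM in aspirin, 0.798, 3.42 and 0 CPM in aspirin with hydrogel, and 10.3, 0.447 and 0.204 CPM in control muscle. The lymphocyte markers Cd79b and Ms4a1 were likewise highest in Aspirin replicate 1 (275 and 224 CPM) and Control replicate 1 (69.7 and 40.5 CPM). Tfrc, the transferrin receptor that brings iron into cells, had 68.0, 86.4 and 252 CPM in aspirin, 283, 194 and 185 CPM in aspirin with hydrogel, and 157, 205 and 172 CPM in control muscle, lowest in 2 of the libraries with much globin RNA. These genes were chosen after their values were seen.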
